A study of Mus musculus with 8 samples.

Results

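The genes described are 10 genes of TGR5 and cAMP signaling, taken by name from a table of 55487 mouse genes: the receptor gene Gpbar1 (TGR5), the adenylyl cyclases Adcy7 and Adcy9, the protein kinase A (PKA) subunits Prkaca and Prkar1a, the transcription factors Creb1 and Crem, the phosphodiesterases Pde4b and Pde4d, and the salt-inducible kinase Sik1. Each name matched 1 row of the table. To study how ursodeoxycholic acid (UDCA), a secondary bile acid, acts on macrophages under inflammatory stimulation, the study sequenced RNA of the mouse macrophage cell line J774A.1. One group of 4 libraries, called LPS, came from cells given bacterial lipopolysaccharide (LPS, 1 μg/mL), and the other group of 4 libraries, called LPS + UDCA, came from cells given the same LPS with UDCA (1 mM), both for 24 h. Both groups carry LPS, untreated cells and UDCA alone were not analysed here, and J774A.1 is an established tumor-derived line rather than primary tissue macrophages. The labels do not say whether the libraries of a group came from separate cultures, so the p-values measure only the spread between these libraries.

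TGR5 is a bile acid receptor of the cell surface that couples to the stimulatory G protein. Once bound, the G protein switches on adenylyl cyclases, which make cyclic AMP (cAMP) from ATP, and cAMP frees the catalytic subunits of PKA from their regulatory subunits. Catalytic subunits phosphorylate CREB, which binds the cAMP response element and drives target genes, and phosphodiesterases end the signal by hydrolysing cAMP. In macrophages, agents that raise cAMP are known to dampen the release of inflammatory cytokines and to raise IL-10.

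Of the 10 genes, 7 could be tested, and among these Adcy7 alone passed both thresholds used (2-fold or more, with an FDR under 0.05), and it fell with UDCA from 43.7 ± 3.03 to 14.4 ± 0.834 TPM (SD, n = 4 per group). TPM are the reads of a gene divided by its length and scaled to a nominal 1000000 per library, so that levels of different genes can be compared. Prkaca also fell and Creb1 and Pde4d rose at an FDR under 0.05, each by less than 2-fold. These calls stand beside 17.1% of all genes tested past both thresholds and 72.5% at an FDR under 0.05. Adcy9, Prkar1a and Crem did not pass the FDR threshold, and Gpbar1, Pde4b and Sik1 lay under the mean of 1 TPM over all 8 libraries that was required for the test.

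The sequences shown first are those of the receptor assay and of the cAMP response element letters found before the starts of these genes. The study's primers for mouse TGR5 are given because they mark the stretch of the receptor message that its quantitative PCR read, and both lie in the coding sequence of the only exon of Gpbar1, 120 bases from end to end, on chromosome 1 of GRCm38. No other annotated gene held both primers. The forward primer matches chr1:74278665-74278683 on the plus strand and the reverse primer is the reverse complement of chr1:74278765-74278784.
TGR5 forward: cctggcaagcctcatcgtc
TGR5 reverse: agcagcccggctagtagtag

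The full element searched was TGACGTCA, which reads the same on both strands, and the shorter letters were TGACG and its complement CGTCA, both of which overlap within the full element. Windows ran from 250 bases before to 50 bases after each RefSeq start on GRCm38.p6. For 8 of the 10 genes 19 windows were searched. No window was searched for Crem and Sik1, so nothing can be said of theirs. Of the 32851 promoter windows of all genes, 1.79% held TGACGTCA and 20.8% held TGACG or CGTCA. Among the 19 windows, 2 held the full element, both covering the same site of Prkar1a, and 7 held the shorter letters, in Adcy7, Adcy9, Prkaca, Prkar1a and Pde4b. No match was found in the windows of Gpbar1, Creb1 and Pde4d, which says only that these letters are not in those windows. Stretches upstream of the start are printed for the genes described most, each in the direction of its gene and with the matched letters in capitals. They are chr8:88282872-88282991 for Adcy7 on the plus strand (1 of its 3 windows, match beginning 28 bases before the start), chr16:4420499-4420618 for Adcy9 on the minus strand (24 bases before), chr8:83972858-83972977 for Prkaca on the plus strand (1 of its windows, 120 and 6 bases before) and chr11:109650889-109650918 for Prkar1a on the plus strand. The Prkar1a match begins 49 bases before the start at 109650949 but 38 bases after another of its starts, at 109650862.
Adcy7: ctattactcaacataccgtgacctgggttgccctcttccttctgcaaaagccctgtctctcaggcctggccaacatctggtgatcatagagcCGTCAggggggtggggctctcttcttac
Adcy9: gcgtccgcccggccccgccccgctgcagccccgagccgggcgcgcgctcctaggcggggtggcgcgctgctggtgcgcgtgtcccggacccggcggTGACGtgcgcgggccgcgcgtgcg
Prkaca: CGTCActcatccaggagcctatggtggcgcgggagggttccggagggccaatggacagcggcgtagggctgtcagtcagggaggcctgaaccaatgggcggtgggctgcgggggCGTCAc
Prkar1a: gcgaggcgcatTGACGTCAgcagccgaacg

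The TPM columns summed to 973190 to 977485 with LPS, against 958918 to 962737 with LPS + UDCA, so the listed totals did not overlap between groups. Among all 28 pairings of libraries 0 had the same values throughout. TPM keep no count of reads, so depth cannot be stated and errors come from differences between libraries. Of 8 macrophage markers, 7 had a mean above 1 TPM and Mrc1 was at 0 to 0.01 TPM, and the summed marker level was 3917 to 4172 TPM with LPS, against 1747 to 1968 with LPS + UDCA. The markers moved both ways without overlap between groups, 5 lower and 2 higher with UDCA. Lyz2 (lysozyme) carried most of the fall in the sum, at 1848 to 2041 TPM with LPS, against 410.4 to 457.2 with LPS + UDCA. The 2 that were higher were Adgre1 (an adhesion receptor), at 41.4 to 51.0 TPM with LPS, against 102.4 to 121.3 with LPS + UDCA, and Fcgr1 (an Fc receptor), at 36.3 to 39.4 TPM, against 100.8 to 120.8. Of 20 markers of other cell types, 18 had a mean under 1 TPM. The exceptions were S100a8 (17.25 to 21.17 TPM with LPS, 2.47 to 9.03 TPM with LPS + UDCA) and S100a9 (1.07 to 4.22 TPM and 0 to 0.5 TPM), while the neutrophil marker Ly6g was at 0 in all 8 libraries. In RNA of whole cultures, fewer cells that express a gene and less RNA per cell cannot be told apart. The part of these marker shifts in the results below was not tested.

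Changes were tested with limma on log2(TPM + 1) over the 11796 genes whose mean reached 1 TPM, with Benjamini-Hochberg FDR over all of them, and all fold changes are on the log2(TPM + 1) scale, where those of low genes come out too small. Of the 11796 genes, 17.1% passed both thresholds (8.71% higher and 8.44% lower with UDCA), and 72.5% passed the FDR threshold alone (40.2% higher and 32.3% lower). The split depended on the scaling, since 1028 genes rose and 995 fell past both thresholds as deposited (50.8% of calls higher), against 810 and 1167 after median-of-ratios scaling (41.0%). Of the 7 tested genes, 0 rose and 1 fell past both thresholds, and 2 were higher and 2 lower at an FDR under 0.05. For 4 of the 7 the groups had no overlap, beside 66.8% of all genes tested. The median log2 fold change was 0.02 over the 7 genes and 0.08 over all genes tested.

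**Figure D1:**
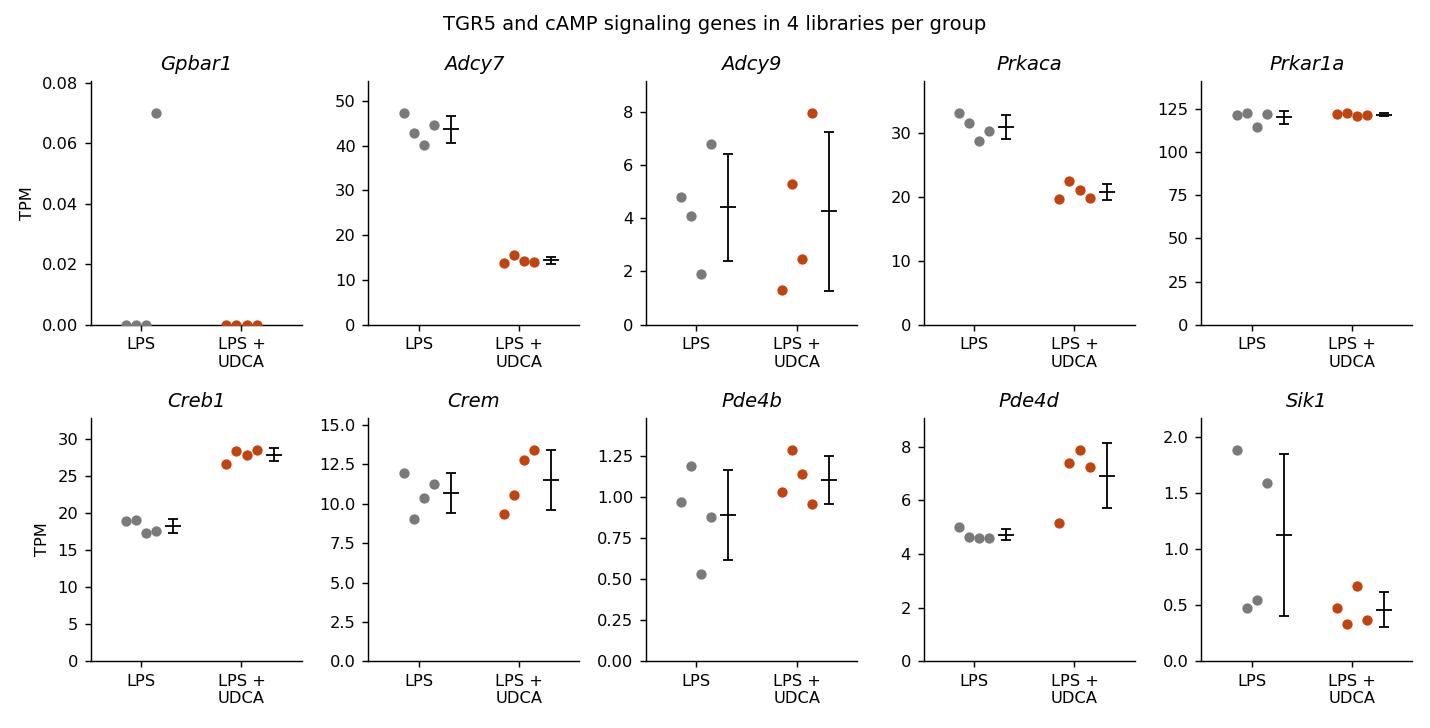
TPM of the 10 genes (linear axes from 0, a scale for each gene) in the 4 LPS libraries (gray, left) and the 4 LPS + UDCA libraries (orange, right), as points in the order of replicates 1 to 4, with mean and SD as bars except for Gpbar1. All LPS + UDCA points of Adcy7 and Prkaca lie below all LPS points, those of Creb1 and Pde4d lie above, and those of Adcy9, Prkar1a, Crem, Pde4b and Sik1 overlap.

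The question for the receptor was whether its message was present and moved with UDCA. Gpbar1 (ENSMUSG00000064272), which encodes TGR5, lies on chromosome 1 from 74278550 to 74279624 of GRCm38 on the plus strand, with 1 exon. It was listed at 0, 0, 0 and 0.07 TPM in LPS replicates 1 to 4 and at 0 in all 4 LPS + UDCA libraries. Thus 7 of 8 libraries were at 0 and the highest value was 0.07 TPM. Of the 55487 genes listed, 21532 had a higher mean. At this level no fold change is given, and whether its message moved with UDCA could not be measured here. Because TPM hold no depth, a limit on what was missed cannot be given. None of the 31-base words of its transcript occurred in another gene (0%).

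Among 10 receptors that bile acids are known to bind or to act through, 2 passed the filter and 3 were at 0 in every library. Nr3c1, the glucocorticoid receptor, had 4.11, 3.29, 3.07 and 3.39 TPM with LPS, against 7.51, 6.81, 7.65 and 7.78 with LPS + UDCA. It rose by 0.92 on the log2 scale (SE 0.091, FDR 1.51e-05, limma), with no overlap between groups and short of 2-fold on the log2(TPM + 1) scale. In mean TPM it was 2.15-fold higher with UDCA. S1pr2, a sphingosine-1-phosphate receptor that conjugated bile acids also activate, went from 4.72 ± 0.442 to 2.97 ± 0.441 TPM (n = 4 per group, log2 fold change -0.53, FDR 0.0015). Named after their values were seen, Nr1h4 (FXR, the nuclear bile acid receptor) was listed at 0 in 7 libraries and at 0.04 TPM in LPS + UDCA replicate 4. The study itself reported FXR message induced by UDCA in LPS-treated J774A.1 cells at 24 h, and more FXR protein. Those measurements were not compared with the TPM here. Nr0b2 (SHP, a repressor that FXR induces) had 2.05, 1.49, 1.46 and 1.29 TPM with LPS, against 0.36, 0.07, 0.42 and 0.36 with LPS + UDCA, under the filter. The groups did not overlap for Nr0b2.

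Other receptors that raise cAMP through the stimulatory G protein were lower with UDCA in 5 of 6 tested, 1 of 6 past both thresholds, and their median change was -0.68 on the log2 scale. Over all genes tested, 32.3% were lower at an FDR under 0.05, 17.1% passed both thresholds and the median change was 0.08. On the log2(TPM + 1) scale, the share past both thresholds was thus near that of all genes. Named after their values were seen, the low genes Gipr and Ptger4 were 3.17-fold and 2.28-fold lower in mean TPM but did not pass both thresholds. Adora2b, an adenosine receptor, had 9.43, 10.99, 12.78 and 11.55 TPM with LPS, against 1.45, 1.69, 0.80 and 1.02 with LPS + UDCA. It fell by 2.45 on the log2 scale (SE 0.144, FDR 5.55e-07), the lowest log2 fold change of this group. Of the 17 such receptors reported, 6 reached the filter of a mean of 1 TPM and 5 were at 0 in every library.

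Heterotrimeric G proteins carry the signal from receptor to cyclase. Of 10 tested subunits, 7 were lower and 2 higher at an FDR under 0.05, and 1 passed both thresholds (median change -0.28 on the log2 scale), beside 32.3% lower, 40.2% higher and 17.1% past both thresholds over all genes (median 0.08). Gnas, which encodes the stimulatory α subunit itself and was named for that role, had 360.3 ± 11.2 and 341.6 ± 4.49 TPM, a log2 fold change of -0.08 (FDR 0.047). Gng2, a γ subunit, fell from 68.7 ± 11.5 to 30.1 ± 6.16 TPM (log2 fold change -1.17, FDR 0.00017). Of the kinases and arrestins that desensitize such receptors, 4 of 5 tested were lower at an FDR under 0.05 and 1 passed both thresholds, Arrb2 (β-arrestin 2), which fell from 142.1 ± 5.68 to 65.1 ± 7.0 TPM (log2 fold change -1.12, FDR 1.00e-06).

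Adenylyl cyclases make cAMP, and Adcy7, a form known to be abundant in blood and immune cells, held most of the cyclase message. Adcy7 (ENSMUSG00000031659, chromosome 8 from 88272403 to 88329962, plus strand) had 47.34, 42.76, 40.14 and 44.55 TPM in LPS replicates 1 to 4. With LPS + UDCA it had 13.71, 15.59, 14.31 and 13.97 TPM. The lowest LPS library was thus above 40 TPM and the highest LPS + UDCA library under 16 TPM. The mean was 3.04-fold lower with UDCA on the TPM scale, and the log2 fold change was -1.54 (SE 0.064, 95% CI -1.68 to -1.39, FDR 6.74e-08, limma). An exact permutation test of the TPM gave p = 0.029, the smallest that 4 against 4 libraries allow. Over 16 alternative settings of the fit, its log2 fold change ran from -1.64 to -1.5 and its FDR from 1.28e-08 to 1.28e-05. The settings of filter, variance trend, fold minimum and replicate block cannot move the fold change of a gene, and that of the fold minimum cannot move its FDR.

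Adcy9 (ENSMUSG00000005580, chromosome 16 from 4287529 to 4420498, minus strand) encodes a widely expressed cyclase that responds little to forskolin. It had 4.81, 4.09, 1.92 and 6.80 TPM with LPS, against 1.31, 5.29, 2.47 and 7.96 with LPS + UDCA. The libraries of each group spread over more than 3-fold and the groups overlapped across nearly their whole range. The log2 fold change was -0.14 with an SE of 0.437 (95% CI -1.13 to 0.84, FDR 0.78), an interval that still holds a 2-fold decrease. Its sign turned to 0.06 without LPS replicate 4 and to 0.19 without LPS + UDCA replicate 1. Of the other cyclases, Adcy2 was the tested one, named after its value was seen, and it fell from 3.74 ± 0.235 to 2.78 ± 0.249 TPM (log2 fold change -0.33, FDR 0.0081). Of the 10 cyclases, 3 were tested and 2 of these were lower at an FDR under 0.05, beside 32.3% of all genes tested.

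Because TPM are per length, the cyclases of a library can be summed. The sum was 56.59, 50.94, 46.02 and 56.46 TPM with LPS, against 18.13, 24.68, 20.32 and 24.92 with LPS + UDCA. The groups did not overlap, with means of 52.5 ± 5.06 and 22.01 ± 3.34 TPM (exact permutation test, p = 0.029). Adcy7 made up 83.65, 83.94, 87.22 and 78.91% of that sum with LPS and 75.62, 63.17, 70.42 and 56.06% with LPS + UDCA, again without overlap (p = 0.029, exact permutation test). The share of Adcy9 was 8.19 ± 3.22% with LPS and 18.2 ± 10.9% with LPS + UDCA, and its groups overlapped (exact permutation test, p = 0.17). The share of Adcy2 was 7.16 ± 0.508% and 12.8 ± 1.77% without overlap. Sums, shares and the PKA ratio gave 32 such comparisons, and after Benjamini-Hochberg adjustment over them the smallest p was 0.051, so none passed 0.05, a limit set by the 70 arrangements of 8 libraries.

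**Figure D2:**
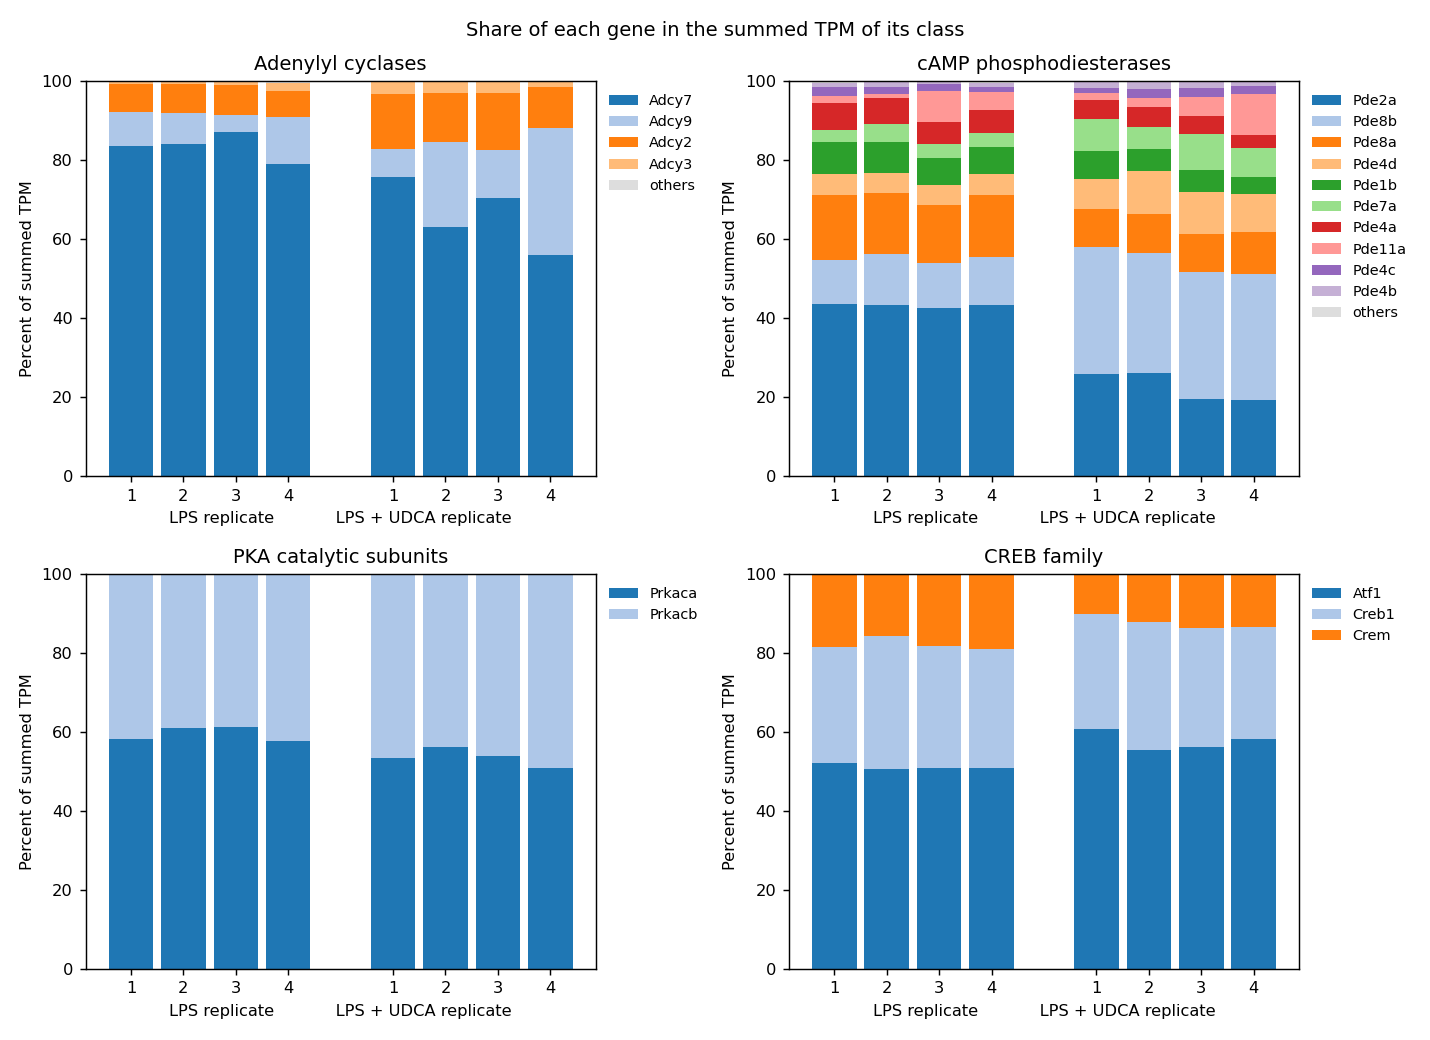
Percent of the summed TPM of its class that each gene made up, as stacked bars for LPS replicates 1 to 4 (left) and LPS + UDCA replicates 1 to 4 (right), for adenylyl cyclases, cAMP phosphodiesterases, PKA catalytic subunits and the CREB family (genes too small to see are pooled as others). The share of Adcy7 is 78.91 to 87.22% in the LPS bars and 56.06 to 75.62% in the LPS + UDCA bars, and among the phosphodiesterases Pde2a holds 43.1% of the LPS mean and 22.7% of the LPS + UDCA mean, and Pde8b 11.95% and 31.6%.

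PKA is the kinase that cAMP releases. Prkaca (ENSMUSG00000005469, chromosome 8 from 83972993 to 83996443, plus strand) encodes its main catalytic subunit and had 33.08, 31.47, 28.70 and 30.29 TPM with LPS. With LPS + UDCA it had 19.68, 22.39, 21.04 and 19.82 TPM. All LPS + UDCA libraries lay below all LPS libraries, and the log2 fold change was -0.55 (SE 0.062, 95% CI -0.69 to -0.41, FDR 3.40e-05, limma). On the TPM scale the mean was 1.49-fold lower with UDCA. Over the 16 alternative settings its log2 fold change ran from -0.66 to -0.52, short of 2-fold in each, and its FDR stayed at or under 0.00049. Of the 31-base words of its transcripts, 2.97% also occur in other genes. Prkacb, the other catalytic subunit, had 21.1 ± 2.40 and 17.9 ± 0.894 TPM (log2 fold change -0.22, FDR 0.038) and its groups overlapped. The share of Prkaca in the catalytic message was 59.5 ± 1.81% with LPS and 53.6 ± 2.17% with LPS + UDCA (exact permutation test, p = 0.029, and 0.051 adjusted).

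Prkar1a (ENSMUSG00000020612, chromosome 11 from 109649405 to 109669656, plus strand) encodes the regulatory subunit that held about 9 in 10 of the regulatory message, and it was the most abundant of the 10 genes. It had 121.4, 122.7, 114.7 and 121.9 TPM with LPS, against 122.0, 122.7, 121.0 and 121.2 with LPS + UDCA. Except for LPS replicate 3, all libraries lay between 121.0 and 122.7 TPM. The log2 fold change was 0.02 (SE 0.033, 95% CI -0.06 to 0.09, FDR 0.62, limma). The sign depended on the scaling, at -0.09 (FDR 0.029) after median-of-ratios scaling and 0.10 (FDR 0.011) after quantile normalization, so no direction is given for it. With each library rescaled to 1000000 TPM its mean was 3.48 TPM higher with UDCA (exact permutation test, p = 0.029, against p = 0.71 as deposited). Of the 8 genes whose promoter windows were searched, it is the one with the full response element, and Crem and Sik1 were not searched. Its share of the regulatory message was 88.8 ± 2.06% and 90.5 ± 1.27% (exact permutation test, p = 0.17).

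Set against each other within a library, which no scaling of whole libraries can move, the summed catalytic subunits were 0.409, 0.386, 0.358 and 0.382 of the summed regulatory subunits with LPS. With LPS + UDCA the ratio was 0.278, 0.293, 0.292 and 0.287. The groups did not overlap, with means of 0.384 ± 0.0209 and 0.288 ± 0.00671 (exact permutation test, p = 0.029, and 0.051 adjusted). Of the PKA inhibitor proteins, Pkig, the most abundant, fell from 64.2 ± 5.0 to 49.8 ± 4.06 TPM (log2 fold change -0.36, FDR 0.0016). Of 2 tested inhibitors, it was the 1 that passed the FDR threshold, beside 72.5% of all genes tested.

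**Figure D3:**
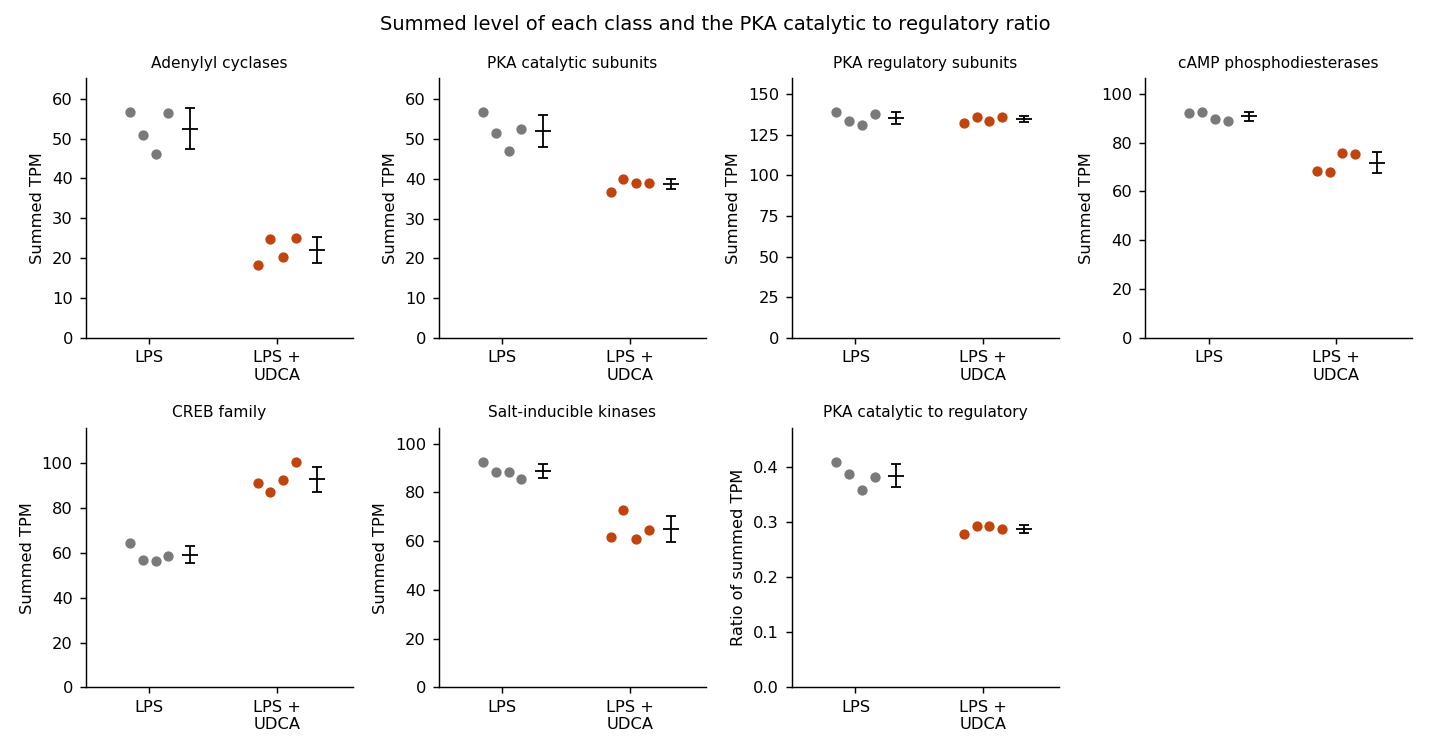
Summed TPM of each class, and in the last panel the ratio of summed PKA catalytic to regulatory subunits, with a point for each LPS (gray) and LPS + UDCA (orange) library in the order of replicates 1 to 4 and bars for mean and SD (n = 4 per group, axes from 0). The cyclase sum is 46.02 to 56.59 TPM with LPS, against 18.13 to 24.92 with LPS + UDCA, the CREB family sum is higher with UDCA in every library, and the regulatory subunit sums overlap.

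CREB family factors bind the response element. Creb1 (ENSMUSG00000025958, chromosome 1 from 64532645 to 64604548, plus strand) had 19.00, 19.14, 17.39 and 17.63 TPM with LPS, against 26.65, 28.39, 27.90 and 28.60 with LPS + UDCA. Every LPS + UDCA library was above every LPS library. Creb1 rose by 0.58 on the log2 scale (SE 0.051, 95% CI 0.47 to 0.70, FDR 7.28e-06, limma), which is 1.52-fold in mean TPM. Over the 16 alternative settings its log2 fold change ran from 0.48 to 0.61 and its FDR from 4.45e-06 to 0.00025. The gene has 11 annotated transcripts, which the table does not separate, and 0.882% of their 31-base words occur in other genes.

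Crem (ENSMUSG00000063889, chromosome 18 from 3266048 to 3337748, minus strand) encodes activators and, from an inner promoter, repressors of the same element, and the gene level does not separate them. It had 11.95, 9.02, 10.39 and 11.27 TPM with LPS, against 9.32, 10.56, 12.77 and 13.44 with LPS + UDCA, with overlapping groups. The log2 fold change was 0.10 (SE 0.123, 95% CI -0.18 to 0.37, FDR 0.50), and -0.0028 after median-of-ratios scaling. The antisense gene Gm6225 shares 472 exon bases with Crem, 8.01% of its exon bases, and lay at 0.02 to 0.74 TPM, and 6.57% of the 31-base words of Crem also occur in other genes. The counting is not stated to use strand, so reads of this overlap cannot be told apart.

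Atf1, the third member of the family and the most abundant, rose from 30.3 ± 2.33 to 53.5 ± 4.45 TPM (log2 fold change 0.80, FDR 9.19e-06). The family sum was 59.2 ± 3.74 and 92.9 ± 5.61 TPM without overlap between groups. The share of Creb1 was 30.9 ± 1.86% and 30.1 ± 1.80% (exact permutation test, p = 0.51), that of Atf1 51.1 ± 0.689% and 57.5 ± 2.38%, and that of Crem 17.96 ± 1.46% and 12.4 ± 1.61%, the last both without overlap. Of 5 coactivators that CREB recruits, 4 were higher at an FDR under 0.05 (beside 40.2% of all genes) and 2 passed both thresholds (beside 8.71% higher). Crebbp (CBP, a histone acetyltransferase) rose from 4.26 ± 0.596 to 11.96 ± 0.553 TPM (log2 fold change 1.31, FDR 1.38e-06). Crtc1, a cAMP-regulated coactivator, rose from 4.92 ± 1.04 to 10.8 ± 0.516 TPM (log2 fold change 1.01, FDR 5.97e-05). After median-of-ratios scaling, 1 of the 2 coactivators was still called. Crtc2, the most abundant coactivator listed, had 40.4 ± 1.12 and 43.2 ± 1.25 TPM with overlapping groups. It did not pass the FDR threshold (log2 fold change 0.10, FDR 0.060).

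Pde4 enzymes hydrolyse cAMP and are the targets of rolipram and related anti-inflammatory drugs. Pde4d (ENSMUSG00000021699, chromosome 13 from 108449948 to 109953461, plus strand) had 5.01, 4.65, 4.59 and 4.60 TPM with LPS, against 5.15, 7.39, 7.89 and 7.25 with LPS + UDCA. The groups did not overlap, but LPS + UDCA replicate 1 lay close to the LPS libraries and apart from the other 3 of its group. Pde4d rose by 0.46 on the log2 scale (SE 0.117, 95% CI 0.19 to 0.72, FDR 0.0059, limma). Its SD was 0.200 TPM with LPS, against 1.21 with LPS + UDCA. Leaving out each library in turn kept the log2 fold change between 0.40 and 0.57, and over all 16 alternative settings the FDR was at most 0.020. Pde4d is a long gene with 20 annotated transcripts, which the table does not separate.

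Pde4b (ENSMUSG00000028525, chromosome 4 from 102087543 to 102607259, plus strand), the form tied to LPS responses of macrophages in mice, had 0.97, 1.19, 0.53 and 0.88 TPM with LPS. With LPS + UDCA it had 1.03, 1.29, 1.14 and 0.96 TPM. The groups overlapped, the mean over all libraries was just under 1 TPM (0.999), and in a fit without the filter, over all 23729 genes above 0 TPM in any library, the log2 fold change was 0.16 (95% CI -0.12 to 0.45, FDR 0.37, limma). The exact permutation test of its TPM gave p = 0.23.

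The summed cAMP phosphodiesterases had 90.7 ± 1.77 TPM with LPS, against 71.8 ± 4.20 with LPS + UDCA, without overlap (exact permutation test, p = 0.029). Over all genes tested, 40.2% were higher and 32.3% lower at an FDR under 0.05, and 8.44% fell past both thresholds. Of 9 tested phosphodiesterases, 3 were higher and 4 lower at that FDR, and 1 fell past both thresholds (median change -0.05 on the log2 scale, beside 0.08 over all genes). That was Pde2a, a form that cGMP stimulates, at 39.98, 39.99, 38.05 and 38.45 TPM with LPS, against 17.69, 17.78, 14.82 and 14.54 with LPS + UDCA (log2 fold change -1.23, SE 0.073, FDR 6.19e-07). Pde8b, a form of high affinity for cAMP that was named after its value was seen, rose from 10.8 ± 0.736 to 22.7 ± 1.73 TPM (log2 fold change 1.00, just short of 2-fold on the log2(TPM + 1) scale, FDR 1.79e-06). In shares of the class, Pde2a held 43.1 ± 0.446% and 22.7 ± 3.79%, Pde8b 11.95 ± 0.710% and 31.6 ± 0.805%, Pde4d 5.19 ± 0.179% and 9.62 ± 1.47%, and Pde4b 0.981 ± 0.289% and 1.55 ± 0.257% with LPS and LPS + UDCA. The groups did not overlap for Pde2a, Pde8b and Pde4d and overlapped for Pde4b (exact permutation test, p = 0.057).

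Sik1 (ENSMUSG00000024042, chromosome 17 from 31844250 to 31855804, minus strand) encodes a kinase that CREB induces and that in turn holds CRTC coactivators out of the nucleus. It had 1.89, 0.48, 0.55 and 1.59 TPM with LPS, against 0.48, 0.33, 0.67 and 0.37 with LPS + UDCA. LPS replicates 1 and 4 stood above 1.5 TPM, and the other 2 LPS libraries lay within the range of the LPS + UDCA libraries. It was under the filter, and without the filter the log2 fold change was -0.48 (95% CI -1.02 to 0.06, FDR 0.15, limma; exact permutation test of TPM, p = 0.17). Sik3, which made up 84.8 ± 1.31% and 82.9 ± 3.29% of the summed salt-inducible kinases, fell from 75.1 ± 2.39 to 53.7 ± 2.98 TPM (log2 fold change -0.48, FDR 1.77e-05). Of 5 tested kinases and partners, 3 were lower and 1 higher at an FDR under 0.05 and 0 passed both thresholds. Over all genes tested, these shares were 32.3% lower, 40.2% higher and 17.1% past both thresholds.

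In order of level with LPS, the 10 genes ran Prkar1a, Adcy7, Prkaca, Creb1, Crem, Pde4d, Adcy9, Sik1, Pde4b and Gpbar1. The libraries overlapped between the neighbours Pde4d and Adcy9 and between Sik1 and Pde4b, and between no others. With LPS + UDCA the order was Prkar1a, Creb1, Prkaca, Adcy7, Crem, Pde4d, Adcy9, Pde4b, Sik1 and Gpbar1, and Pde4d and Adcy9 overlapped. Adcy7 thus stood in the second place with LPS and in the fourth with LPS + UDCA. Over all 8 libraries, 1025 of the 55487 genes had a higher mean than Prkar1a, 3815 a higher mean than Adcy7, and 11796 a higher mean than Pde4b. The SE of the log2 fold change over the 7 tested genes ran from 0.033 for Prkar1a to 0.437 for Adcy9.

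The question for the targets was which genes known to be driven by cAMP and CREB moved. Of 15 tested, 4 were higher and 7 lower at an FDR under 0.05, and 1 rose and 4 fell past both thresholds (median change -0.09 on the log2 scale, beside 0.08 over all genes). The 11 of 15 past the FDR threshold stand beside 72.5% of all genes tested, so by that count the list was near all genes. The 1 that rose and 4 that fell past both thresholds stand beside 8.71% higher and 8.44% lower over all genes. Whether the list differs from all genes was not tested. Egr1, an immediate early transcription factor, had 40.94, 37.22, 32.80 and 32.59 TPM with LPS, against 3.88, 3.89, 3.08 and 2.81 with LPS + UDCA, and it fell by 3.07 on the log2 scale (SE 0.109, FDR 2.79e-08). Il10, an anti-inflammatory cytokine, fell from 76.7 ± 1.94 to 12.9 ± 1.51 TPM (log2 fold change -2.49, FDR 1.40e-08). The AP-1 genes Fos and Fosb fell from 23.6 ± 2.28 to 5.20 ± 1.16 TPM (log2 fold change -2.0, FDR 9.34e-07) and from 4.64 ± 0.781 to 1.10 ± 0.368 TPM (log2 fold change -1.43, FDR 2.75e-05). Junb, the most abundant target listed, fell by less than 2-fold, from 459.5 ± 15.4 to 291.3 ± 20.4 TPM (log2 fold change -0.66, FDR 3.19e-06). Vegfa, an angiogenic growth factor named after its value was seen, was the target that rose past both thresholds, from 29.1 ± 2.07 to 66.3 ± 4.88 TPM (log2 fold change 1.16, FDR 5.31e-07). Of the 10 genes, Crem, Sik1, Pde4b and Pde4d are themselves counted as CREB targets in the list, and of these Pde4d rose at an FDR under 0.05, Crem did not pass and the other 2 were under the filter. These genes answer many other signals, LPS itself included, and all 8 libraries hold LPS.

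**Figure D4:**
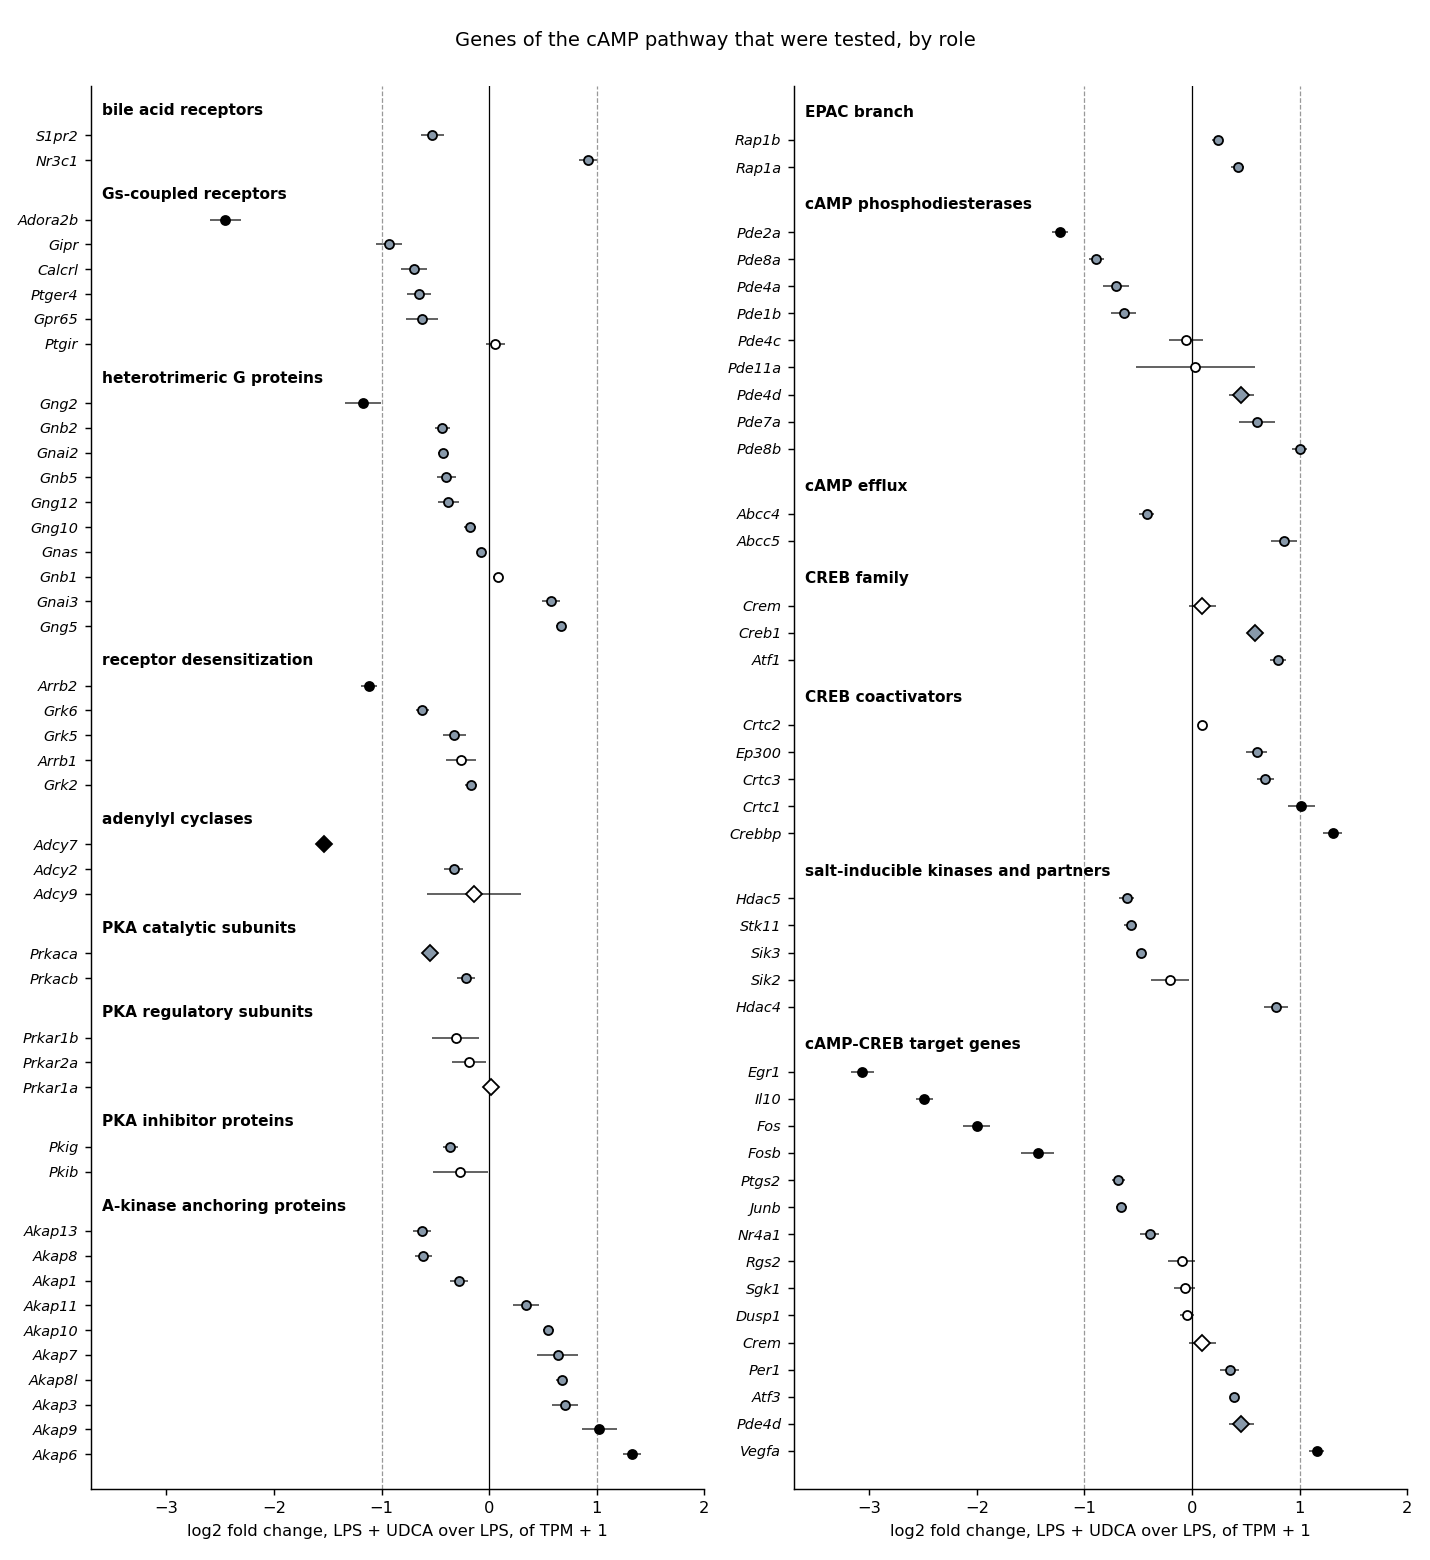
Log2 fold change of TPM + 1, LPS + UDCA over LPS, for each tested gene of the lists by role, with bars for the SE, diamonds for members of the 10 genes and circles for the others. Black marks genes past both thresholds, gray those at an FDR under 0.05 alone and white the rest, dashed lines mark 2-fold, and Adcy7 at -1.54 is the black diamond. Of the tested Gs-coupled receptors 5 of 6 are gray or black left of 0, and of the CREB coactivators 4 of 5 are gray or black right of 0. Over all genes tested, 32.3% were lower and 40.2% higher at an FDR under 0.05.

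Over the 127 listed genes other than these 10, 75 were tested, of which 5 rose and 8 fell past both thresholds, 17.3% of them beside 17.1% of all genes tested. At an FDR under 0.05 alone, 24 were higher and 38 lower, beside 40.2% and 32.3% of all genes tested, and the median log2 fold change was -0.21. The genes whose profile over the 8 libraries was nearest to that of Adcy7, by root mean square distance of log2(TPM + 1) from the LPS mean among 7072 genes of at least 10 TPM, were Plcd3 (0.0435), Igsf8 (0.0504) and Rab31 (0.0598). The nearest, Plcd3, went from 75.2 to 25.2 TPM. Gpbar1, at 0 in 7 of 8 libraries, has no profile to which others could be compared.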

How the data were processed

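J774A.1 RNA (TRIzol, TruSeq RNA kit) was sequenced by a company on Illumina HiSeq, and its reads were processed on that company's cloud platform. The authors deposited TPM per gene and library, kept to 2 decimals. The submitters' processing notes list Bowtie 0.12.2, mm10 and GRCm38 without roles, and the counter and strand setting are not given in the sources used here. Libraries were grouped by their titles. The thresholds (fold change of at least 2, FDR under 0.05) are those of the study's methods. Its general test, an analysis of variance with Tukey's post hoc comparisons, was replaced by limma, and a count test did not apply to TPM. Genes whose mean reached 1 TPM were fitted as log2(TPM + 1) with limma 3.58.1 (lmFit, eBayes with trend, R 4.3.3), a procedure tested on simulated data. The simulation planted only changes larger than 2-fold in genes that were not low, so it did not check calls near 2-fold or of low genes. Single levels, sums and shares were compared by 2-sided exact permutation tests over 70 arrangements of 8 libraries (SciPy 1.17.1, pandas 2.3.3, Python 3.11.15, matplotlib 3.10.9). Positions are from GENCODE M21 on GRCm38 and promoters from RefSeq on GRCm38.p6. Genes were named from the 10 genes, in each other list up to 4 genes past both thresholds with the largest change and the most abundant gene, and the 3 nearest profiles of Gpbar1 and Adcy7 (not given for Gpbar1, which is nearly always at 0). Exceptions are marked, and 1 listed gene is not reported here. The genes and lists were chosen with earlier results of these data known. Alternatives covered scaling, pseudocount, filter, variance trend, fold minimum, replicate block and each library left out. A marker check covered 28 genes of 7 cell types.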

Additional observations from a re-analysis of the deposited data

Results flagged for a closer look

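Of 51 groups of 4 values tested, 3 held a library far from the other 3 of its group, where chance gives about 1 in 20 groups (2.5 of 51). For Gpbar1, LPS replicate 4 had 0.07 TPM and the other LPS libraries 0. Prkar1a was lowest in LPS replicate 3, at 114.7 TPM, and the nearest library had 121.4 TPM. Without that library its log2 fold change was -0.0029. Pde4d was highest in LPS replicate 1, at 5.01 TPM, and the nearest library had 4.65 TPM.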

How the results depend on the processing

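Adcy7 passed both thresholds under every alternative run, from -1.64 to -1.5 on the log2 scale, and Prkaca (-0.66 to -0.52), Creb1 (0.48 to 0.61) and Pde4d (0.36 to 0.57, FDR up to 0.020) kept their direction and an FDR under 0.05 in all 16. Median-of-ratios scaling moved the median of all genes from 0.08 to -0.02, turned Prkar1a to -7.48 TPM and -0.089 on the log2 scale (FDR 0.029) and Crem to -0.0028, took the PKA regulatory sum to -10.9 TPM (exact permutation test, p = 0.029) and left 1 anchoring protein and 1 coactivator called up. Prkar1a was 3.48 TPM higher with TPM rescaled to 1000000 (exact permutation test, p = 0.029). Leaving out a library took Adcy9 from -0.46 (without LPS + UDCA replicate 4) to 0.06 (without LPS replicate 4) and 0.19 (without LPS + UDCA replicate 1), and Prkar1a to -0.0029 without LPS replicate 3. The cause of these turns was not tested. Over all genes, 683 rose with a mean of at least 5 TPM, where fewer genes were tested. Without the fold minimum 4741 rose and 3807 fell (40.2% and 32.3% of all genes tested), and 2 of the 10 genes rose and 2 fell. The lists then gave 1 up and 1 down (bile acid receptors, and efflux), 5 down (Gs-coupled receptors), 2 up and 7 down (G proteins), 4 down (desensitization), 2 down (cyclases, and PKA catalytic subunits), 1 down (PKA inhibitors), 7 up and 3 down (anchoring), 2 up (EPAC branch, and CREB family), 3 up and 4 down (phosphodiesterases), 4 up (coactivators), 1 up and 3 down (salt-inducible kinases and partners) and 4 up and 7 down (targets).

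Leaving out each library in turn gave 959 to 1122 genes up and 972 to 1033 down, and of the 10 genes 0 up and 1 down. The difference in sums, LPS + UDCA minus LPS, ran from -32.65 to -29.13 TPM for cyclases, from -14.96 to -11.67 TPM for PKA catalytic subunits, from -2.26 to 0.329 TPM for regulatory subunits, from -20.2 to -17.7 TPM for phosphodiesterases, from 31.08 to 35.55 TPM for the CREB family and from -26.25 to -22.26 TPM for salt-inducible kinases, and that of the PKA ratio from -0.105 to -0.0876. The difference in shares ran, in percentage points, from -20.2 to -13.7 for Adcy7, from 5.42 to 13.66 for Adcy9, from -6.78 to -5.01 for Prkaca, from 1.17 to 2.73 for Prkar1a, from 0.436 to 0.668 for Pde4b, from 4.01 to 5.12 for Pde4d, from -1.67 to 0.0440 for Creb1, from -6.30 to -4.87 for Crem and from -0.784 to -0.283 for Sik1. With 3 against 4 libraries the exact test cannot go below p = 0.057.

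The groups share replicate numbers, but the deviations of same-numbered libraries correlated by -0.035 to 0.15 (mean 0.088, 3 of 4 pairs over 0.1), beside -0.15 to 0.16 (mean -0.029, 1 of 12 over 0.1) for the others. Since 1 of the 4 pairs was not over 0.1 and not every library correlated best with its own number, the numbers were not taken to pair the libraries, though a shared origin of some is not settled by this. With the replicate number as a block, 1034 genes rose and 1000 fell, and of the 10 genes 0 rose and 1 fell. TPM hold no depth, so levels near 0, such as that of Gpbar1, carry no counting limit.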

Other observations

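A-kinase anchoring proteins tether PKA at chosen places in the cell. Over all genes tested, 40.2% were higher and 32.3% lower at an FDR under 0.05, and 8.71% rose past both thresholds. Of 10 tested anchoring proteins, 7 were higher and 3 lower with UDCA at that FDR and 2 rose past both thresholds. Their median change was 0.59 on the log2 scale beside 0.08 over all genes tested. After median-of-ratios scaling 1 was called up. Akap6 had 12.36, 10.54, 9.17 and 10.98 TPM with LPS, against 29.04, 29, 26.18 and 29.29 with LPS + UDCA (log2 fold change 1.33, SE 0.084, FDR 8.93e-07, limma). Akap9 rose from 2.92 ± 0.901 to 6.84 ± 1.05 TPM (log2 fold change 1.02, FDR 0.00037), and Akap8l, the most abundant, from 24.2 ± 0.900 to 39.1 ± 1.62 TPM (log2 fold change 0.67, FDR 1.97e-06).

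Outside PKA, cAMP acts on the EPAC exchange factors of the small GTPase RAP1. The counts that follow stand beside 40.2% higher and 32.3% lower at an FDR under 0.05 over all genes tested. Both exchange factor genes were under the filter, and both tested RAP1 genes were higher at an FDR under 0.05, with Rap1b at 158.8 ± 10.3 and 187.4 ± 7.90 TPM (log2 fold change 0.24, FDR 0.0024). Of the 2 transporters known to export cyclic nucleotides, 1 was higher and 1 lower at an FDR under 0.05. Abcc5 rose from 18.0 ± 3.26 to 33.1 ± 3.11 TPM (log2 fold change 0.85, FDR 0.00018).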
